A study of Mus musculus with 12 samples.

Results

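The regions bound by the cerebellar transcription factors Zic1 and Zic2 in the most mature cultures of the series, granule neurons on day 7 in vitro (DIV7), are described here gene by gene. Peaks of the 3 DIV7 lists on chromosomes 1 to 19 and X that shared at least 1 bp were joined, and regions with a peak from all 3 libraries were kept. This gave 17674 core regions, 12.6% of the 140209 merged regions of that day. Calls in replicates 2 and 3 alone, without the shallowest library, gave 28563. Merging the lists of all 12 libraries of the series gave 282545 regions.

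The cells were cultured mouse cerebellar granule neurons, the small excitatory neurons of the cerebellar cortex. Zic binding was measured by CUT&RUN, in which an antibody brings a nuclease to the bound protein and the released DNA is sequenced. The antibody recognises a C-terminal part of Zic1/2, so the protein bound at a given region cannot be told apart between them. On day 2 the cultures received 1 uM cytosine arabinoside, an inhibitor of DNA synthesis that kills proliferating cells. The DIV7 libraries, like those of DIV3 and DIV5, were made after this treatment, and the DIV1 libraries were taken before it. Each day has 3 libraries, which the series calls biological replicates, and no genotype differs between the days.

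Zic proteins are a small family of zinc finger transcription factors related to the Gli proteins of the hedgehog pathway. Zic1 and Zic2 are abundant in cerebellar granule neuron progenitors, where they are needed for normal expansion and foliation, and they stay expressed in the neurons that form from them. Binding is read here from the position and height of peaks, and a peak near a gene does not show that the gene is regulated by it. Binding data hold no expression, so the labelled cell type was not checked by marker RNA. In these bulk libraries, fewer cells with a bound site and less binding per cell cannot be told apart.

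The DIV7 lists were of unequal depth. Replicates 1, 2 and 3 contributed 62986, 76692 and 72519 peaks, holding 0.979, 2.47 and 1.53 M reads, and the 12 libraries ranged from 0.979 to 3.26 M. Replicate 1 was thus the shallowest library of the series. A typical peak was small, with a median of 9, 14 and 12 reads. The strength of a region is given below as the percentile of its maximum signal, the highest coverage in the peak, among all peaks of the same library, averaged over the 3 libraries. Reads are given for replicates 1, 2 and 3 in that order.

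Among regions whose reads followed library depth, as defined further on, many of the strongest lay at the start of a gene. The 250 bases before the RefSeq start (build GRCm38.p6) are shown for 4 genes whose regions were among the strongest of these at gene ends, Tacc3, Hip1, Camta1 and Mnt. They are followed by the activity-regulated gene Fos, by the granule neuron genes Cbln3 and Gabra6, and, for contrast, by Zic1 and the myelin gene Mog, at which no core region lay. Each is written from 5′ to 3′ on the gene's own strand, and capitals mark the dinucleotide CG.
Tacc3, chr5:33657878-33658127, plus strand: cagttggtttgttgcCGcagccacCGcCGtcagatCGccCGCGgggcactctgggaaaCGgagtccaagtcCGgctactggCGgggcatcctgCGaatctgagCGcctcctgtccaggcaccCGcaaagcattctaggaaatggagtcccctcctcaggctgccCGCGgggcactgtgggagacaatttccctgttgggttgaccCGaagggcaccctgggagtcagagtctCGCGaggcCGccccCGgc
Hip1, chr5:135545123-135545372, minus strand: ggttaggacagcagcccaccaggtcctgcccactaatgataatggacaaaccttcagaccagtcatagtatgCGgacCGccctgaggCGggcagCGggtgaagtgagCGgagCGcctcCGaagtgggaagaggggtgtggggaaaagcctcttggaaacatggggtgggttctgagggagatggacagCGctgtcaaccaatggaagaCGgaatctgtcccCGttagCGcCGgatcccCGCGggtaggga
Camta1, chr4:151861769-151862018, minus strand: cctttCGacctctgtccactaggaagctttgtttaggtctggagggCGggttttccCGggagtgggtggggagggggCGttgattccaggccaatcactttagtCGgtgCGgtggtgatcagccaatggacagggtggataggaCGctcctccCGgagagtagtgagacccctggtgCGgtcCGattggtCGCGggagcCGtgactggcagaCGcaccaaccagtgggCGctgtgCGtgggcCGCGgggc
Mnt, chr11:74830674-74830923, plus strand: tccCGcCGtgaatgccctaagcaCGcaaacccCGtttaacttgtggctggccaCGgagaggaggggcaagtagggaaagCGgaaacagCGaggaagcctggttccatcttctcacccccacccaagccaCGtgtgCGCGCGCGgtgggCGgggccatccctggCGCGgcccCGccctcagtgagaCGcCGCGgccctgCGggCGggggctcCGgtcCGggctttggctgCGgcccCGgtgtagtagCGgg
Fos, chr12:85473640-85473889, plus strand: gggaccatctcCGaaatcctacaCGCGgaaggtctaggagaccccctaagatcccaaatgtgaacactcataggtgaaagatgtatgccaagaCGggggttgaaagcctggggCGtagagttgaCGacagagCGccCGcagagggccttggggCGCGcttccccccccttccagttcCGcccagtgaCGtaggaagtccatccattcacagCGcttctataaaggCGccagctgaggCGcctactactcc
Cbln3, chr14:55884257-55884506, minus strand: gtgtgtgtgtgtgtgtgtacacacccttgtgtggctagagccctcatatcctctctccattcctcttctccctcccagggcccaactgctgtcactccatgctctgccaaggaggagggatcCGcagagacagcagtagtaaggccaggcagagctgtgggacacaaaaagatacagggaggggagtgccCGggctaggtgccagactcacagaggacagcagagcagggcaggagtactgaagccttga
Gabra6, chr11:42321073-42321322, minus strand: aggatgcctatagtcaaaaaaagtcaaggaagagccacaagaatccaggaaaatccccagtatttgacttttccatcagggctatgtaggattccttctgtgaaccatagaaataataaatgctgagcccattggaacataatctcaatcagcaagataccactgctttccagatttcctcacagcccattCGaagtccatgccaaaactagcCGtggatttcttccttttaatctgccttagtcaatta
Zic1, chr9:91365769-91366018, minus strand: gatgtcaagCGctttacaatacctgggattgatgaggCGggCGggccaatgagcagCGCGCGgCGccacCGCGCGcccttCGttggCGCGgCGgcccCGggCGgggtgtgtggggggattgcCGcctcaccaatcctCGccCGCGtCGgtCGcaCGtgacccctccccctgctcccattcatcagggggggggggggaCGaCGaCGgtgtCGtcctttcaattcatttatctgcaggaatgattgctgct
Mog, chr17:37023399-37023648, minus strand: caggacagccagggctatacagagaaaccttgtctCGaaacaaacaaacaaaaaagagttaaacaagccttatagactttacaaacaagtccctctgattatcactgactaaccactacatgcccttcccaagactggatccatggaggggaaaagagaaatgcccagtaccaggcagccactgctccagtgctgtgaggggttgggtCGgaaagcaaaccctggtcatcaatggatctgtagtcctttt
In the order printed, the 9 sequences held 19, 14, 18, 26, 15, 2, 2, 27 and 2 CG dinucleotides. The whole printed window lay in a core region for the first 6 genes, and 168 of the 250 bases did for Gabra6. The CG-rich windows of Tacc3, Hip1, Camta1, Mnt and Fos were bound, and so were the CG-poor ones of Cbln3 and Gabra6. The window of Zic1 held the most CG of the 9 and overlapped no core region.

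Core regions were concentrated at gene ends. Within 1 kb of either end of a protein-coding gene lay 7929 of them (44.9%), a further 4723 (26.7%) lay inside a gene and 5022 (28.4%) lay between genes. Among regions called in 2 DIV7 libraries the gene-end share was 18.1%, and among those called in 1 it was 8.08%. The gene table gives no strand, so both ends count, but 6200 of the gene-end regions (78.2%) lay within 1 kb of a RefSeq start. Gene-end regions were also the widest and strongest of the 3 classes. Their median width was 1132 bp and their median percentile 83.1, against 847 bp and 70.6 inside genes and 713.5 bp and 69.5 between genes. The median reads were 28, 88 and 45 at gene ends, 18, 55 and 24 inside genes, and 18, 36 and 23 between genes. Of the 5022 regions between genes, 1704 lay more than 50 kb from the nearest gene.

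**Figure D1:**
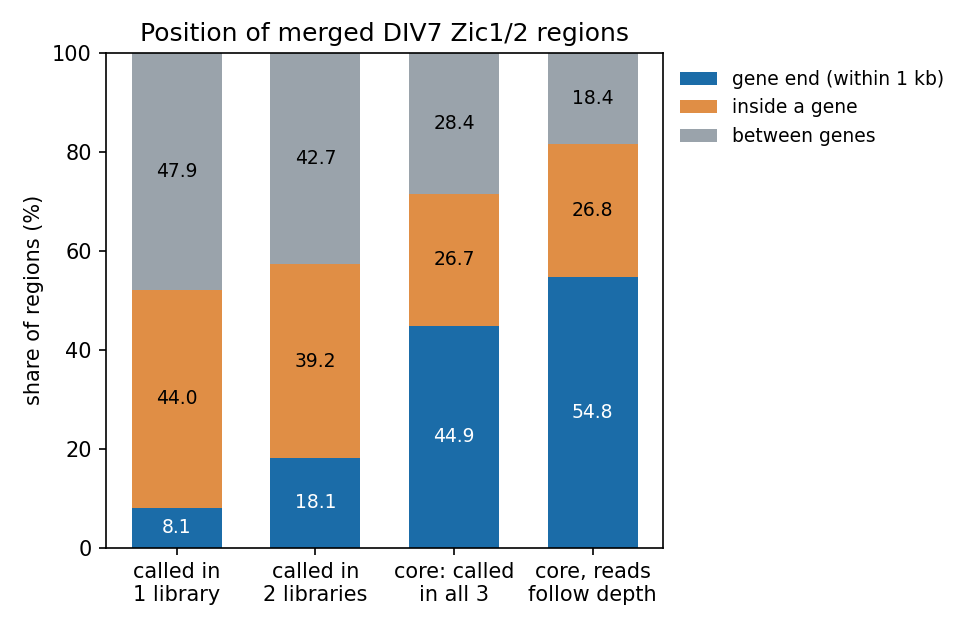
Share of merged DIV7 regions (percent, vertical axis) at a gene end, inside a gene and between genes, for regions called in 1, 2 or all 3 DIV7 libraries and, in the last bar, for core regions whose reads follow library depth. Gene ends hold 8.08% of the regions called in 1 library, 44.9% of the core regions and 54.8% of the last group.

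The share at gene ends followed the strength of the region. Of the 4079 core regions with a mean percentile from 90 to 100, 60.5% lay at a gene end. The share was 51.5% from percentile 70 to 90, 32.5% from 50 to 70 and 20.03% below 50. The same order held for presence at other days, since 96.3%, 79.8%, 48.9% and 21.8% of these 4 groups had a peak in all 9 libraries of DIV1, DIV3 and DIV5. The strength of a core region varied between the DIV7 replicates. Spearman's correlation of the maximum signal across core regions was 0.566 between replicates 1 and 2, 0.512 between 1 and 3 and 0.543 between 2 and 3, as a description over regions that share a library. The region in Fstl4, which encodes a secreted follistatin-like protein, stood at percentiles 97.6, 99.5 and 6.0. That inside Rftn1, a lipid raft protein gene, stood at 0.864, 96.9 and 82.7.

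The very strongest regions behaved differently from the rest. Reads in a core region generally followed the depth of the library, with a median ratio of replicate 1 to replicate 2 of 0.384, against 0.397 for all reads in peaks. In the 10 strongest regions the reads were nearly equal in the 3 libraries. The maximum signal saturated at 8 core regions in all 3 libraries, so these have no order by it, and ties were ordered by total signal. The widest, 38424 bp on chromosome 9 near Alkbh8, held 37820, 38656 and 41138 reads. Another, near Gm2244, held 6252, 6319 and 6456. Another 4 of the 10, in 1 stretch of chromosome 2 whose nearest gene is Lrrc4c, lay more than 1 Mb from that gene, and their reads in replicates 1 and 2 were 1928 and 1923, 1322 and 1336, 412 and 427, and 622 and 617. The remaining 4 were nearest to or in Rpusd4, Rab10, Chl1 and Pak3. Of the 100 strongest core regions, 96 had a ratio of at least 0.6 and 4 lay at a gene end. What sets these loci apart was not tested.

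Regions that follow depth are therefore also given on their own. A region was counted as depth-following if its reads in replicate 1 were less than 0.6 of those in replicate 2 and fewer than 40 core regions lay within 250 kb on either side, limits chosen after seeing the data. The members nearest the ratio limit stood at 0.598 inside and 0.6 outside. No lower limit was set on the ratio and replicate 3 was not used, so a member need not follow depth in every library. This kept 13105 core regions (74.1%), of which 54.8% lay at a gene end, 26.8% inside a gene and 18.4% between genes. A ratio of at least 0.6 was found in 8.55% of the gene-end regions, 22.3% of those inside genes and 45.1% of those between genes. Each core region needs a called peak in replicate 1, so one with few reads in replicate 2 can hardly fall under 0.6. The median reads in replicate 2 were 88 at gene ends, 55 inside genes and 36 between genes. How far this requirement sets the shares was not tested.

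**Figure D2:**
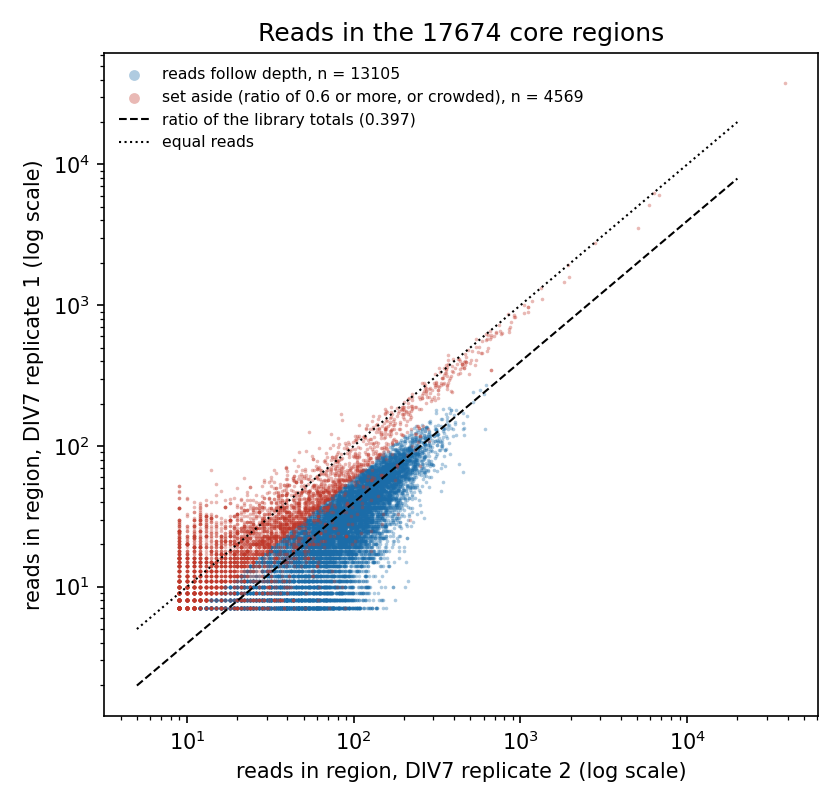
Reads per core region in DIV7 replicate 1 against replicate 2 (both axes log scale), with depth-following regions in blue and the others in red. Most regions scatter around the ratio of library depths, 0.397, whereas the regions with most reads lie along equality.

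Among the depth-following regions at gene ends, the strongest lay at Tacc3, whose product binds spindle microtubules in dividing cells. It spanned chr5:33657259-33658950 (mm10) and held 120, 265 and 150 reads. The next was at Hip1, encoding a clathrin adaptor that binds huntingtin, with 125, 244 and 158 reads. Camta1, which encodes a calmodulin-binding transcription activator, reached a maximum signal of 15, 22 and 18 reads. That replicate 1 lay below replicate 2 was fixed by the choice of depth-following regions. The region at Klf10, a zinc finger transcription factor gene, held 242, 521 and 307 reads. The region at Mnt, encoding a repressor of the Myc network, spanned chr11:74829546-74833225 and held 270, 624 and 312. Ptges2, a prostaglandin E synthase gene, had 101, 277 and 164 reads.

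Inside genes, the strongest depth-following region lay in Frmd6, which encodes a FERM domain protein, at chr12:70877716-70878776 with 77, 146 and 57 reads. Replicate 3 held fewer reads there than replicate 1, although it was the deeper library. The maximum signal at Frmd6, of 23, 34 and 25 reads, was above that at Tacc3, which was 16, 24 and 22. Sin3a, the scaffold of a histone deacetylase complex, had a region inside the gene with 185, 372 and 250 reads. Banp, whose product binds CG-rich promoter DNA, had 57, 166 and 120. The Sin3a and Banp regions both overlapped a RefSeq start, although they were classed as inside genes. Between genes, the strongest was 8505 bp from Cerk, the ceramide kinase gene, with a maximum signal of 22, 31 and 29 reads.

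Within 1 kb of their span, 10171 of 21627 protein-coding genes (47.0%) had a core region. A depth-following region was found at 9380 genes (43.4%). Among the 17273 genes with a RefSeq start in the table used, 7233 (41.9%) had a core region within 1 kb of a start. Most bound genes had 1 region (7823), and 385 genes (1.78%) had 4 or more. Long genes were reached more often: with genes split into 5 groups of rising length, the share with a core region was 20.8%, 41.8%, 48.6%, 55.4% and 68.4%.

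The genes with most core regions were largely members of clustered families or uncharacterised models. Gm38510 had 58, Gm7592 had 54 and Sfi1, a centrosome protein gene, had 47. Next came Ccl21b, a chemokine gene, with 25, then C130026I21Rik, Gm21154 and Sp140 with 24 each. Of the 15 genes with most regions, Gse1 was the only one at which all regions were counted as depth-following. Gm21154 had 8 such regions, Gm26650 had 2 and the other 12 had none. The reads at Sfi1, summed over its regions, were 5622, 6459 and 7540, so they were nearly level although replicate 2 held the most reads in peaks. Per 10 kb of gene, the densest were Gm10375 and Gm10376, both at 12.9 regions. Families of near-identical copies can share reads, which was not checked here, so counts at such genes are uncertain.

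Genes were also ranked by their depth-following regions, after seeing the data. Many of the genes so ranked are long, and long genes had more regions. Gse1, which encodes a coiled-coil protein of nuclear repressor complexes, had 21 regions along 353 kb. They held 805, 2403 and 1018 reads in all, and 17 of them had a peak in all 9 libraries of the other days. The strongest Gse1 region, chr8:120381681-120383935, stood at percentile 98.8. Calls in replicates 2 and 3 alone gave 39 core regions at Gse1, and calls in replicates 1 and 2 gave 34. Camta1 and Nav2, a cytoskeletal regulator of neurite growth, had 11 each. Zfp423, a zinc finger gene required for cerebellar development, also had 11, with 296, 1155 and 486 reads. Auts2, a neurodevelopmental gene whose product joins a polycomb complex, and Nfix, a nuclear factor I gene that acts in granule neuron maturation, had 10 each. Bahcc1, encoding a chromatin protein, had 9. At 8 regions stood, among others, the acid-sensing channel gene Asic2, the adhesion genes Ntm and Sdk1, the receptor kinase gene Alk and Nfic. Nfic is short, at 35.7 kb, and its regions covered 41.1% of its span, with 257, 1012 and 495 reads.

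The Zic genes were bound unequally. The Zic2 region, chr14:122473303-122475557, held 79, 183 and 102 reads and stood at percentiles 93.7, 95.6 and 95.6. The adjoining Zic5 had a region with 47, 174 and 115 reads at percentiles 80.8, 93.9 and 89.2. Both had a peak in every library of the series. The single region in Zic4 was small, with 13, 12 and 19 reads. It was not among the depth-following regions, a class that so weak a region can hardly enter. At Zic1 no core region was found: replicate 1 had 2 peaks with 31 reads in all, replicate 2 had 3 with 50 and replicate 3 had none. Every library of the other days had 2 or 3 peaks there, with 23 to 108 reads. The 2 DIV7 libraries with peaks shared 2 regions there, so replicate 3 alone kept Zic1 out of the core.

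The number of CG dinucleotides in a promoter went with the chance that a core region lay on it. The windows ran from 250 bases before to 50 bases after a RefSeq start, 21044 in all, and 8143 overlapped a core region. Of windows with 0 to 5 CG, 3.52% overlapped one. The share was 22.8% at 6 to 12 CG, 54.5% at 13 to 20, 68.1% at 21 to 30 and 75.9% at 31 to 67. Windows with a core region held a median of 24 CG and those without held 6.

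**Figure D3:**
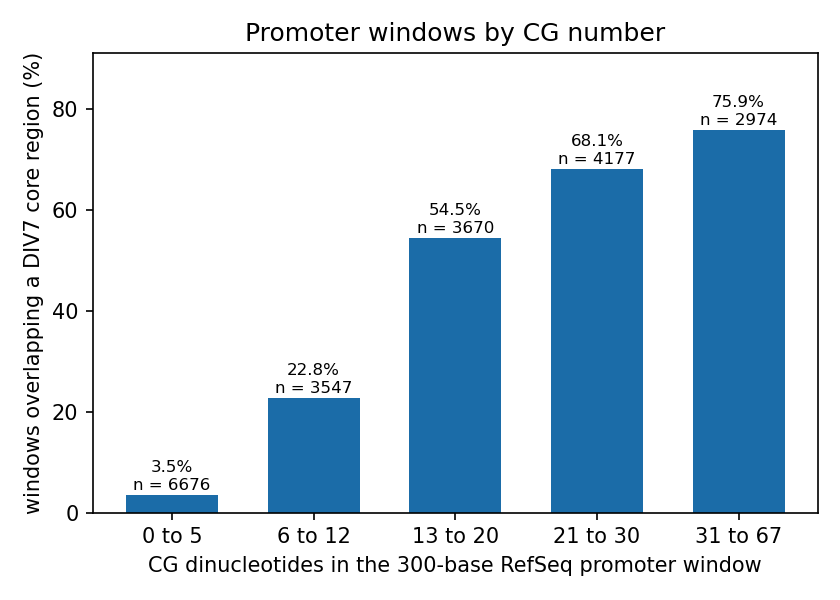
Percent of RefSeq promoter windows that overlap a DIV7 core region (vertical axis) by the number of CG dinucleotides in the window (horizontal axis). The share is 3.52% at 0 to 5 CG and 75.9% at 31 to 67.

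Letters of the Zic motif were no more frequent in windows with a core region than in the others. CCTGCTG, the core of the known Zic motif, was searched on both strands and stood in 9.64% of windows with a core region, 11.2% of those without and 10.6% of all. CAGCTG, a palindrome contained in neither of the other motifs, stood in 13.6% with, 17.0% without and 15.7% of all windows. CCTCTGG, a control with the same letters as the Zic motif, was at 10.2%, 10.4% and 10.3%. Within windows of like GC content the gap for CCTGCTG varied. It was widest from 50 to 60% GC, at 9.94% with and 14.7% without a core region, and from 60 to 70%, at 9.76% and 14.5%. From 40 to 50% GC the shares were 7.56% and 9.41%, and from 70 to 80% they were 9.93% and 11.3%. The control CCTCTGG stood at 9.58% and 13.8% from 50 to 60% GC and at 11.9% and 13.5% from 60 to 70%. It stood at 4.89% and 7.97% from 40 to 50% GC and at 9.18% and 9.61% from 70 to 80%. In the 1321 windows on regions from percentile 95 to 100, CCTGCTG reached 11.6%. Of the 9 printed sequences, none held CCTGCTG or CCTCTGG, and that of Fos held CAGCTG. These counts describe letters in a short window and say nothing of sites elsewhere in a region.

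Gene lists by function were read against the 47.0% of all genes with a core region, a share that is not matched for gene length. Both chromatin lists stood above it, as did most of the other lists. Of 18 chromatin remodellers 16 had a region. Smarcd3, a subunit of the neuronal BAF complex, stood at percentiles 97.6, 99.8 and 98.6, and Smarca4, its ATPase, held 59, 204 and 118 reads. Dpf1 was also bound, and Chd5 and Smarcc2 were the members without. Of 18 polycomb, trithorax and DNA methylation genes 15 had a region, among them Ezh2, the polycomb methyltransferase, at percentiles 97.6, 97.8 and 97.1 and Tet1, a methylcytosine oxidase, with 55, 162 and 65 reads. Eed, Kdm5c and Tet2 had none.

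Of 18 MEF2, CREB and activity-regulated genes 14 had a region, and all 14 had one that followed depth, as did 92.2% of all genes with a core region. Their median percentile at the strongest region was 92.8, against 85.0 over all bound genes. The immediate early gene Egr1 had 182, 342 and 167 reads, Fos had 68, 157 and 99, and Fosb had 57, 128 and 45. Mef2a, encoding an activity-dependent factor of synapse development, stood at percentiles 96.2, 97.8 and 89.2. The activity-induced factor genes Npas4, with 29, 100 and 39 reads, and Jun, with 96, 336 and 189, also had core regions. No core region lay at Arc, Bdnf, Mef2c or Nptx2.

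Granule neuron genes were bound in part. Of 18 marker genes 14 had a region, with a median percentile of 77.6 at the strongest one, against 85.0 over all bound genes. Tiam1, a Rac activator of spine growth, had 67, 215 and 81 reads. Cbln3 and Cbln1, encoding secreted organisers of parallel fibre synapses, had 68, 169 and 119 and 68, 199 and 98. The protocadherin-related gene Fat2 had 77, 162 and 44 reads. Gabra6, the receptor subunit that marks mature granule cells, had a weak region with 10, 27 and 11 reads. Cntn2, Gabrd, Grin2c and Kcnk9 had none. Of 20 granule neuron identity factors 14 had a region, with a median percentile of 69.6 at the strongest one, also below 85.0. Nfib, with 1 region of 58, 213 and 83 reads, and Nfix, with 10 regions, shared the highest percentile of their strongest region, 89.4. Meis1 had 25, 108 and 44, Neurod1 had 19, 34 and 12, and Pax6 had 19, 56 and 13. Atoh1, the progenitor factor, was among the 6 without, with Barhl1, Lhx9, Mab21l1, Meis2 and Nhlh1.

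Genes of axons, migration and synapses were also reached often, and many of them are long. Of 18 migration and cytoskeleton genes 16 had a region, with Dclk1, a microtubule-associated kinase of migrating neurons, at 71, 160 and 79 reads and Cdk5 at 73, 297 and 136. Dcx and Tubb2b had none. Of 26 axon guidance genes 22 had a region, among them the netrin receptors Unc5b, with 55, 179 and 100 reads, and Unc5c, with 60, 212 and 74. Of 22 synapse adhesion and scaffold genes 18 had a region. Nlgn2, the neuroligin of inhibitory synapses, had 134, 352 and 193 reads, Nrxn2 had 6 regions, and Dlg4, the scaffold PSD-95, had 88, 174 and 99. Of 24 presynaptic genes 17 had a region. Unc13a, which primes vesicles, had 106, 262 and 148 reads and Syn2 had 48, 148 and 51. Stx1a, Syn1, Syp and Vamp2 were among the 7 presynaptic genes without.

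Channel and receptor genes were more mixed. Of 20 potassium channels 14 had a region, led by the leak channel gene Kcnk3 with 82, 149 and 39 reads. Of 16 sodium and calcium channel genes and 3 FGF homologous factor genes, whose products bind sodium channels, 14 had one, Fgf12 and Fgf14 among them. The strongest were at the calcium channel genes Cacna1c, with 45, 107 and 32 reads, and Cacna1b, with 63, 207 and 88. The sodium channel genes Scn1a, Scn2a, Scn2b and Scn3a had none. Of 15 glutamate receptor subunits 10 had a region, and the NMDA receptor gene Grin2a held 77, 231 and 64 reads. GABA-A receptor subunits were near the share over all genes, with 6 of 13, of which 3 had a depth-following region. Their median length was 137 kb, and in the longest of the 5 length groups, from 57.8 kb, 68.4% of genes had a core region. The median lengths of the potassium channel and glutamate receptor lists, 140 and 278 kb, also fall in that group.

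Hedgehog pathway genes, which act in granule neuron progenitors, had a region at 11 of 15. Ptch1, the hedgehog receptor, had 4 regions, the strongest with 88, 380 and 196 reads, and Sufu, a negative regulator, had 6. The strongest region, at Smo, held 410, 366 and 631 reads and did not follow depth. Cell cycle genes were bound at 15 of 21, with Pcna, the replication clamp, at 59, 127 and 83 reads, while Mki67 and Top2a had none. Ribosomal protein genes were bound at 16 of 22, and oxidative phosphorylation subunits at 11 of 21.

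**Figure D4:**
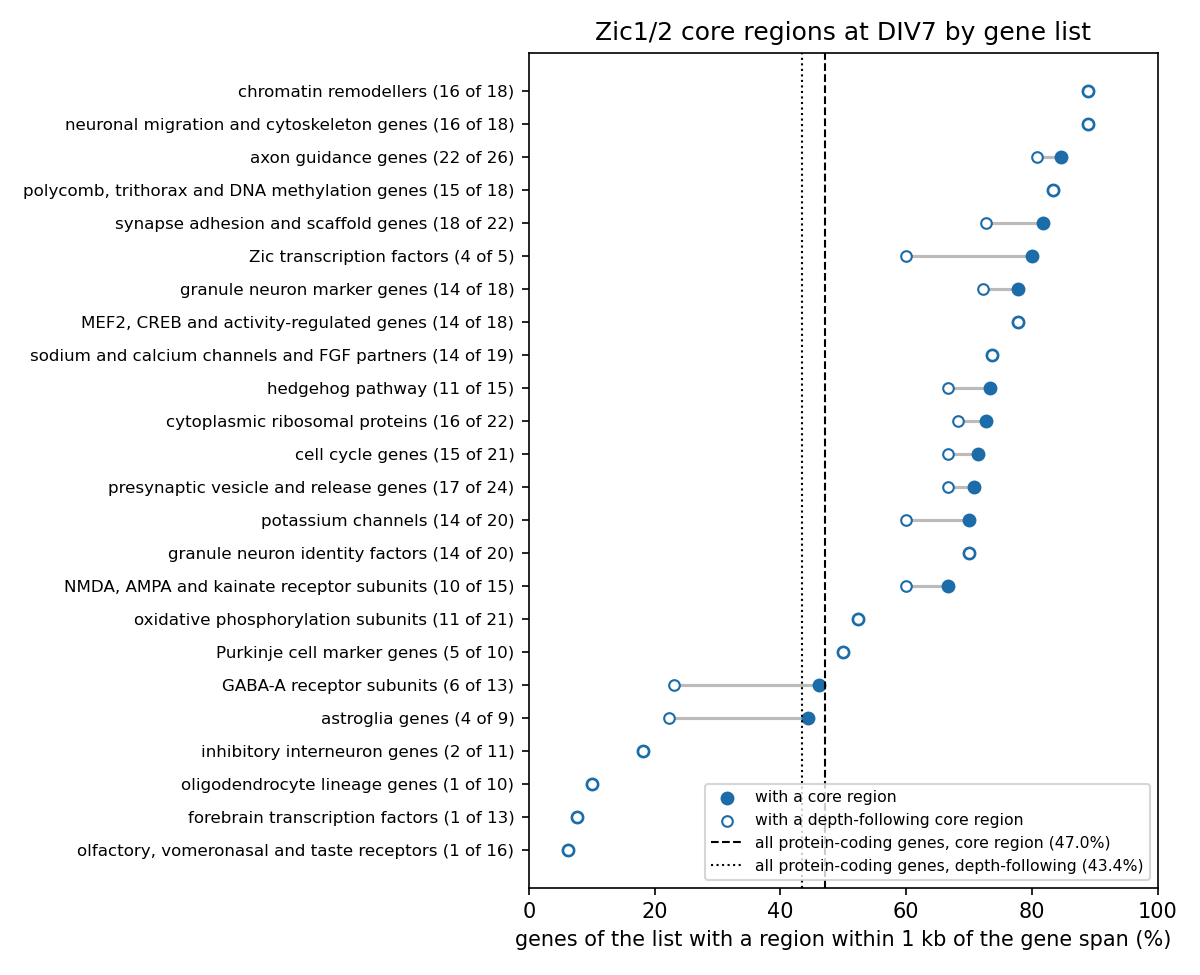
Percent of genes with a DIV7 core region (horizontal axis) in each of the 24 gene lists, as filled points, and with a depth-following one as open points. Lines mark the shares over all protein-coding genes, 47.0% and 43.4%. Chromatin remodellers stand at 16 of 18 genes and olfactory, vomeronasal and taste receptors at 1 of 16.

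Lists of other cell types ranged from far below the share over all genes to about that share. Of 10 oligodendrocyte lineage genes only Pdgfra, the receptor of their progenitors, had a region, with 19, 66 and 53 reads, and Mbp, Mog, Olig1, Olig2 and Sox10 had none. Of 11 inhibitory interneuron genes 2 had a region, among them Lhx1, and Gad1, Gad2, Pvalb and Slc32a1 had none. Of 9 astroglia genes 4 had a region, 2 of them depth-following. Of 10 Purkinje cell genes 5 had a region, including Rora, a nuclear receptor gene with 6 regions. Of 13 forebrain transcription factors 1 had a region, and of 16 olfactory, vomeronasal and taste receptors 1 did, Vmn1r4. The receptor genes are short, with a median of 1.0 kb, and in the shortest of the 5 length groups 20.8% of genes had a core region.

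Most core regions were called on other days too. Each of the other 9 libraries had a peak at 85.2% to 92.9% of them, lowest in DIV1 replicate 1 and highest in DIV5 replicate 1. All 9 had a peak at 12137 core regions (68.7%), which was 87.2% of those at gene ends, 61.6% of those inside genes and 46.0% of those between genes. Only 134 core regions (0.758%) had a peak in none of the 9. They were small, with a median of 8, 13 and 14 reads and a median width of 498.5 bp. Of these 134, 7 lay at a gene end, 46 inside a gene and 81 between genes. The strongest lay 12176 bp from Spocd1, with 9, 25 and 32 reads. Others lay inside Snx29, a sorting nexin gene, with 11, 39 and 27 reads, and inside Med24, a Mediator subunit gene, with 15, 42 and 25. A peak of so few reads can fall below the calling threshold in another library, and its absence there does not show that the site was unbound.

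Whether DIV7 binding sat at different places than on other days was tested on the strongest 10000 peaks of each library. The gene-end share was 42.2%, 52.15% and 47.1% in the 3 DIV7 libraries and ranged from 39.0% to 50.7% in the other 9. The groups overlapped, and the means of 47.1% ± 4.98 (SD, n = 3) and 46.7% ± 3.55 (n = 9) did not differ detectably (exact two-sided permutation p = 0.864, adjusted p = 0.864 over 3 classes). The share inside genes was 24.6% ± 1.24 at DIV7 and 27.2% ± 2.11 on other days (exact permutation p = 0.0864, adjusted p = 0.259). Between genes it was 28.3% ± 5.44 and 26.1% ± 3.29 (exact permutation p = 0.405, adjusted p = 0.607). The smallest p this design allows is 0.00455. Total signals were whole multiples of 50 in 6 libraries, DIV7 replicates 1 and 2 among them, and of 51 in the others, read here as the read length although the labels give 50 bases for all. The 50-base set has no DIV1 library and the 51-base set has 1 DIV7 library. Within these sets, the 50-base one first, the difference between DIV7 and other days was 1.79 and -0.640 percentage points at gene ends, -1.77 and -4.17 inside genes, and -0.0200 and 4.81 between genes.

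Individual regions that differed at DIV7 were sought among the 12241 regions with a peak in all 12 libraries. Ranks of the maximum signal within a library were converted to normal scores, on which limma compared DIV7 with the mean of DIV1, DIV3 and DIV5. By adjusted p up to 0.05, 140 regions (1.14%) passed, 44 of them (0.359%) ranking higher at DIV7 and 96 (0.784%) lower. All 44 higher regions and 86 of the 96 lower ones (89.6%) overlapped a core region, against 96.9% of all regions tested. Core regions are defined by DIV7 peaks and both sets were chosen by DIV7 rank, so no conclusion is drawn from this gap. A region that ranks higher has gained height relative to the other regions of its library, and no absolute change is measured. Of the higher regions 38.6% lay at a gene end and 40.9% inside a gene. Of the lower regions 11.5% and 52.1% did, and of all regions tested 58.5% and 23.2%. The DIV7 libraries include the shallowest of the series, and with reads in peaks as a covariate 0 regions passed limma's adjusted threshold, with 1095 at an unadjusted p under 0.05, against 1712 without the covariate. Depth therefore cannot be told apart from the day here. The count also rested on single libraries, at 24 without DIV7 replicate 1, 14 without DIV7 replicate 3, 91 without DIV1 replicate 1 or 3, and 86 without DIV3 replicate 1. It was 36 within the 51-base libraries, where the only DIV7 library is assumed to vary like those of other days. Without DIV1, which has no 50-base library, it was 0 in limma within the 50-base ones, where 1054 regions had an unadjusted p under 0.05.

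The higher region that held in every left-out-library fit lay at an end of Tspan17, at chr13:54788946-54790632. Tspan17 encodes a tetraspanin that regulates the protease ADAM10. Its percentiles among the shared regions were 78.4, 75.6 and 95.8 at DIV7, with 56, 158 and 134 reads, and 16.2 ± 6.59 (SD, n = 9) on other days, where the highest was 24.4. No DIV7 library overlapped the others (difference of 2.102 ± 0.28 (SE) in normal score, limma adjusted p = 0.00993). A region inside Tspan15, another tetraspanin gene of that group, also ranked higher (1.89 ± 0.38, limma adjusted p = 0.0254). Inside Foxn3, a forkhead repressor gene, a region stood at 78.4, 95.7 and 87.7 at DIV7 and at 25.7 ± 28.4 (n = 9) on other days (2.17 ± 0.38, limma adjusted p = 0.0159). Here the groups overlapped, since the highest library of the other days, from DIV5, reached 81.2. The mean percentiles at Foxn3 were 7.09 at DIV1, 10.95 at DIV3 and 58.9 at DIV5. Its rank was thus already higher at DIV5 than on the earlier days, and the difference is not particular to DIV7. Foxn3 no longer passed without DIV7 replicate 3, and Tspan15 without any 1 of the DIV7 libraries. The other named higher regions lay near or in Gm10354, Prex1, Map4k4, Gatb and 3110082I17Rik, with differences of 1.85 to 2.35. Map4k4 had mean percentiles of 9.47, 23.7 and 70.04 at DIV1, DIV3 and DIV5, so its rank also rose before DIV7. In the same order Prex1 stood at 7.59, 0.954 and 37.3, and Gm10354 at 1.81, 9.21 and 32.7. At Tspan17, Tspan15, Gatb and 3110082I17Rik the DIV5 mean was at most 29.8. The 3 DIV7 libraries lay above all others at 4 of these 8 regions, which were chosen for their difference, and at 146 (1.19%) of all regions tested. Prex1 passed in 2 of the 12 fits that left out a library, 3110082I17Rik in 3, Gm10354 in 8, Gatb in 10 and Map4k4 in 11.

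Lower regions were led in stability by one inside Cfap299, a cilium protein gene, at chr5:98571777-98573036. It stood at 10.4, 19.9 and 14.0 at DIV7, with 10, 54 and 23 reads, and at 87.3 ± 8.07 (n = 9) on other days, where the lowest was 74.5 (difference of -2.28 ± 0.30, limma adjusted p = 0.00993). Inside Pde9a, which encodes a cyclic GMP phosphodiesterase, a region stood at 10.4, 44.0 and 14.0 at DIV7 and at 89.8 ± 10.1 (n = 9) on other days (-2.26 ± 0.36, limma adjusted p = 0.0124). Agtrap, an angiotensin receptor-associated protein gene, had a region at chr4:148079765-148081826 that stood at 10.4, 10.4 and 4.55 and at 74.4 ± 13.2 (n = 9) on other days (-2.11 ± 0.31, limma adjusted p = 0.0124). The DIV7 libraries lay below all others at these 8 named regions, which were chosen for their difference, and at 218 (1.78%) of all regions tested. The remaining 5 were in or near Zfp469, Mrps27, Ift122, Gm829 and Golga5, with differences of -2.50 to -2.03. Ift122 passed in 6 of the 12 fits that left out a library, and the other 4 passed in 10 or 11. Reads at the lower regions were few in DIV7 replicates 1 and 3, with medians of 16, 58 and 14.5 in the 3 replicates. The medians were 31, 92 and 52.5 at the higher regions and 30, 91 and 43 at all regions tested. Both sets were chosen by their rank at DIV7, so a gap in reads between them was built in. Without DIV7 replicate 3 neither Pde9a nor Agtrap passed, and Pde9a also failed without replicate 1. None of the 16 named regions passed with the depth covariate.

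**Figure D5:**
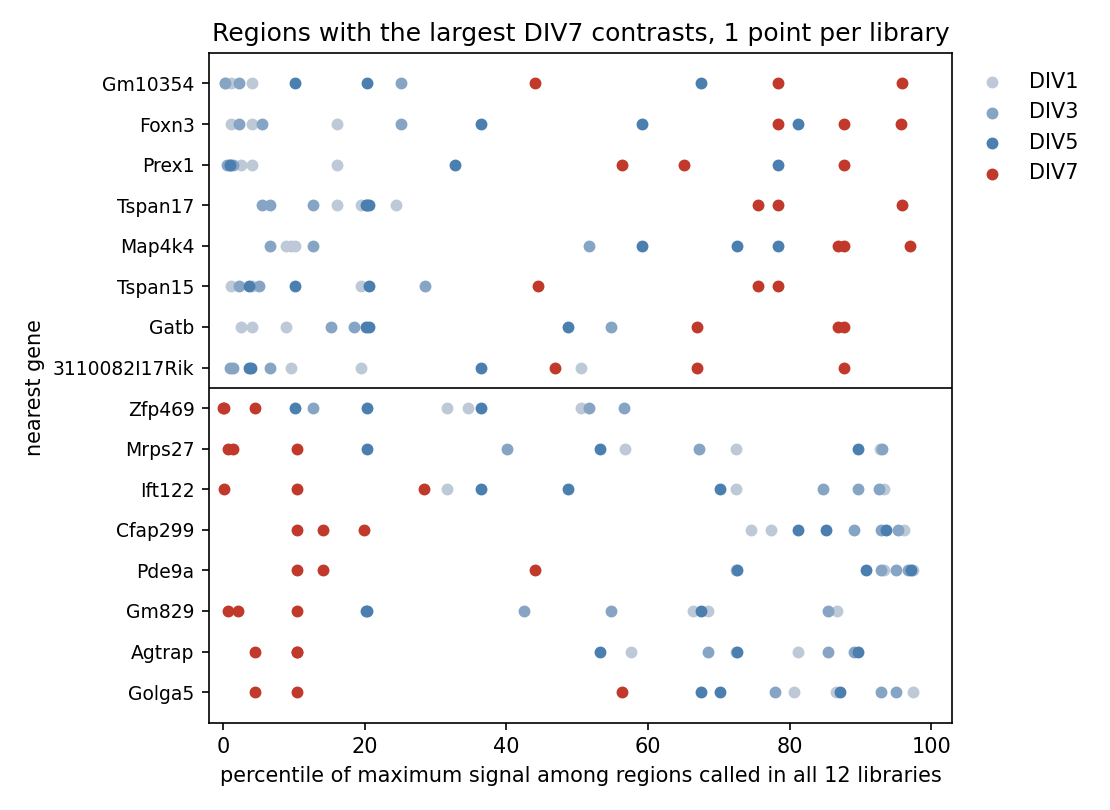
Percentile of the maximum signal among the 12241 shared regions (horizontal axis) for each of the 16 named regions, with 1 point per library and DIV7 in a separate colour. At Tspan17 the DIV7 points lie from 75.6 to 95.8 and the others up to 24.4, and at Cfap299 they lie from 10.4 to 19.9 and the others from 74.5.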

How the data were processed

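The authors deposited 1 peak list per library on mm10, in the form of a SEACR stringent list, with a total and a maximum signal (summed and highest coverage) for each peak; these signals were not scaled to depth. The submitters' processing notes name SEACR 1.3, MACS2 2.1, STAR 2.7.2b, bedtools 2.25.0, Trimmomatic 0.38, DESeq2 1.36.0 and FastQC, without the role of each. Not given in the sources used here are the control, the threshold and how duplicates were handled. Totals were whole multiples of 50 or 51, taken as the read length, so total divided by it was read as reads. The maximum saturates at 100 or 102.

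Genes came from a RefSeq table (GRCm38.p6) of 21627 protein-coding genes that gives spans without strand or exons, and promoters from RefSeq of the same build. Merging, counts and exact permutation tests used Python 3.11.15, pandas 2.3.3, NumPy 2.4.6 and SciPy 1.17.1, figures used matplotlib 3.10.9, and rank scores were fitted with limma 3.58.1 in R 4.3.3 over all 12 libraries, with Benjamini-Hochberg adjustment. The limma step was first tested on simulated data.

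The members, the 24 gene lists and the tests were chosen with earlier results of these data known. Named were the Zic genes, the 15 genes with most core regions, the 10 densest, the 10 strongest, 5 widest and 5 most variable regions, the 8 strongest regions without a peak on other days, up to 5 members of each list with the strongest regions and those with none, and the 8 highest and 8 lowest passing regions. Some of these are given as counts only. The depth-following genes and regions and the weaker list members (Gabra6, Neurod1, Pax6 and Meis1 among them) were chosen after their values were seen. Some results that this rule covers are not reported here.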

Additional observations from a re-analysis of the deposited data

Results flagged for a closer look

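Peaks on chromosome Y lay outside the chromosomes used for the core regions. DIV7 replicate 1 held 2116 of them (3.25% of its list), replicate 2 held 779 (1.01%) and replicate 3 held 799 (1.09%). Over the 12 libraries the number ranged from 145 to 2116, so DIV7 replicate 1, the library with the fewest reads in peaks, held the most.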

How the results depend on the processing

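The core set depends on how a region is defined. Requiring a maximum signal of at least 5 left a gene-end share of 51.8%, with 23.4% inside genes, 24.8% between and 38.0% of genes reached. Requiring 50% cover left 6497 regions (47.9%, 21.3%, 30.8% and 20.9% in that order). Overlap of the parts holding the maximum left 4391 (46.3% at gene ends, 27.3% between, 14.9% of genes). With the 60000 peaks of highest total the values were 47.0% at gene ends, 26.7% between and 45.8% of genes. A gene end of 500 bp gave 42.0% and 29.03% inside genes, and 2 kb gave 48.6%, 23.9% and 27.5%. Chosen after seeing the data, leaving out crowded stretches gave 49.2% and 23.7% between, leaving out regions that do not follow depth gave 53.0%, 20.2% between and 43.8% of genes, and leaving out both gave 54.8%, 18.4% and 43.4%. Without 1 DIV7 library, calls in the remaining pair gave 20937 to 28563 regions, 36.4% to 39.7% at gene ends, 27.2% to 31.7% inside genes, 31.9% to 33.1% between and 46.7% to 56.8% of genes.

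None of the 3 share comparisons passed under any alternative. The gene-end difference turned to -0.189 points with 500 bp and to -0.640 within the 51-base libraries, and ranged from -2.05 to 2.93 without single libraries, negative without DIV3 replicate 2 and DIV7 replicate 2. The difference between genes turned to -0.0200 within the 50-base libraries and ranged from -0.104, without DIV7 replicate 1, to 5.196.

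The 140 passing regions became 581 on total signal, 502 with regions of at least 10 libraries, 211 among depth-following core regions (chosen after seeing the data), 70 up to 2 kb wide, 36 within the 51-base libraries (1 DIV7 library, assumed to vary like the others), 8 without the DIV1 libraries, and 0 within the 50-base libraries (no DIV1 library; 1054 at unadjusted p under 0.05) or with the depth covariate. Single libraries left out gave 14 (without DIV7 replicate 3) to 156. The cause was not tested.

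Replicate numbers were not taken as pairs, since 2 of 18 same-number correlations were over 0.1. As a hint from the data, 8 of 12 libraries correlated best with one of their own number, which 3 of the 9 partners of each carry. The replicate block left 108 regions and gave the 3 shares exact permutation p of 0.875, 0.109 and 0.438. It ended the call at Ift122 alone of the 16 named regions (limma adjusted p = 0.0539).

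Shallow DIV7 libraries limit what weak regions can show. Counting error alone allows 44.1% to 45.6% for the gene-end share (95% Clopper-Pearson). This interval treats regions of the same libraries as independent and leaves out the spread between libraries. The choices of library and definition above moved the share beyond it.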

Other observations

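Some list members stood at different strengths on different days. The region at Syn2, a synapsin gene, had mean percentiles of 63.6, 98.6, 98.7 and 97.7 from the first to the last day. That at Cbln3 stood at 79.1, 71.9, 88.8 and 95.8. In the opposite direction, the region at Slc17a7, the vesicular glutamate transporter gene, stood at 88.0, 87.6, 79.4 and 72.0, and that at Pax6 stood at 85.4, 81.1, 52.3 and 48.1. The Pax6 means hide a wide spread, with 85.8, 45.2 and 25.7 in the DIV5 libraries and 13.2, 79.4 and 51.7 in those of DIV7. The Gabra6 region had no peak in any DIV1 library, a peak in all 3 of DIV3 and in 2 of DIV5. These genes were picked after their values were seen, and the differences were not tested.

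Chromosome X was reached less than any autosome used here. A core region lay within 1 kb of 17.5% of its protein-coding genes, against 38.7% to 55.3% on the autosomes. Of its 760 core regions, 65.8% lay in crowded stretches or did not follow depth, against 24.1% on autosomes.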
